A study of Mus musculus with 9 samples.

Results

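The genes described here are 9 markers of the B lymphocyte lineage, all protein-coding and all found by symbol among the 18571 genes of the deposited table. Cd79a, Cd79b, Ms4a1, Pax5 and Ebf1 mark B cells at large, while Vpreb1, Vpreb3 and Igll1 are used mainly by B cell progenitors and Rag1 by progenitors of both B and T cells. They were measured in poly-A RNA of cells captured from mouse cortex and hippocampus at 9 months of age with an antibody to CD45, a surface protein of all white blood cells. The cells are labelled microglia, the brain's own macrophages, but that capture can also hold other blood cells. Meninges had been removed and the mice perfused, per the labels' protocols. All mice were on the C57BL6/j background, and there were 3 libraries for each of 3 genotypes. Wild type mice (WT) carried no transgene named in the labels. The APP/PS1 mice, called APP below, carry transgenes of familial Alzheimer's disease and develop amyloid plaques. The ACF mice, so shortened in the labels, were APP/PS1:Cx3cr1-CreER:Cx43-flox/flox, which adds floxed Cx43, a gap junction protein encoded by Gja1, and a tamoxifen-dependent Cre made in cells that express Cx3cr1. The protocol gives tamoxifen to every group by gavage at 8 months, at 0.1 mg/g for 5 days. The labels name no Cre and no floxed allele in WT or APP, so ACF differs from APP in both. How many mice went into a library is not given, so p-values measure only the spread between these libraries, which may be technical.

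B cells arise in bone marrow from progenitors that switch on the transcription factors EBF1 and then PAX5, which commit them to the lineage. Progenitors cut and rejoin their immunoglobulin genes with the RAG recombinase, which T cell progenitors use for their receptor genes, and they first test the heavy chain by pairing it with a surrogate light chain made of VPREB1 and IGLL1 (lambda 5). The finished receptor signals through CD79A and CD79B, mature B cells carry CD20 (Ms4a1), and plasma cells that secrete antibody switch Pax5 and Ms4a1 off. B cells are rare in the healthy brain itself, and their progenitors reside in the marrow of the skull and in the nearby meninges.

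RefSeq promoters (GRCm38.p6) were on hand for 7 of the 9 genes; Cd79b and Ms4a1 are named only. The 250 bases before an annotated start of transcription are shown for Cd79a, which was low in APP and overlapped between WT and ACF, and for 3 progenitor genes, because sequence words of the B lineage factors fall differently in them. Capitals mark matches to 4 words searched on both strands, namely the E-box CAGGTG, the octamer ATTTGCAT, and the EBF1-type words CCCNNGGG and CCCNNGAG. The windows, in the same order, are chr7:24897247-24897496 on the plus strand, chr16:16869256-16869505 on the minus strand, chr10:75948050-75948299 on the plus strand and chr2:101649533-101649782 on the minus strand. The Vpreb3 window precedes an internal RefSeq start, inside the gene interval given for it below.
Cd79a: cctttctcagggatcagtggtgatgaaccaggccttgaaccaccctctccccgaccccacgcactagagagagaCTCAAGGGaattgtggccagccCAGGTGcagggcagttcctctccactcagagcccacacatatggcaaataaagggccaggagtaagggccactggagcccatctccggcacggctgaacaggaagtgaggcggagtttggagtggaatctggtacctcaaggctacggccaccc
Vpreb1: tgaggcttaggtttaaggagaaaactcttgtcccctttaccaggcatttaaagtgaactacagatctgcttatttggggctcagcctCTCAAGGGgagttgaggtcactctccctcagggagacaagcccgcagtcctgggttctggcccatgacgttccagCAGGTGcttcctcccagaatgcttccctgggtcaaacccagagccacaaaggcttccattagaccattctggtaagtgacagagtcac
Vpreb3: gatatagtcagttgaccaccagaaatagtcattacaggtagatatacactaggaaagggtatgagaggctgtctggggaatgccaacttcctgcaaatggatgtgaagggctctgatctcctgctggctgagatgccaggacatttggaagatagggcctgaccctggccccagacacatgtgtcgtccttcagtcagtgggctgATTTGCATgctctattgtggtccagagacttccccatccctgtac
Rag1: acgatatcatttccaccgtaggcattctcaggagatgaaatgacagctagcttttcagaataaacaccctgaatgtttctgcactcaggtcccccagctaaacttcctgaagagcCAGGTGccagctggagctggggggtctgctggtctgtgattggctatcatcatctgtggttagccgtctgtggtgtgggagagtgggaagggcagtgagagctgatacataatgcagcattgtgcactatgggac

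Cd79a and Vpreb1 held the same 8 letters of CCCNNGAG, read on the opposite strand and starting 176 and 163 bases before the start, each followed by CAGGTG at 154 and 88 bases. Igll1 held CAGGTG, CCCNNGGG and CCCNNGAG, Vpreb3 held the octamer at 45 bases, and Rag1 held CAGGTG at 135 bases. None of the words lay in the Pax5 window or in either of the Ebf1 windows. Among 32851 mouse promoter windows of the same length, 17.2% held CAGGTG, 1.6% the octamer, 11.8% CCCNNGGG and 20.7% CCCNNGAG. A match is a run of letters and not a measured binding site.

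Total estimated counts ran from 18907681 to 19565354 per library, so 3 counts correspond to 0.147 to 0.164 CPM (the counts-per-million scale, with TMM scaling of the libraries). Gja1 counts were 484 to 539 in ACF against 688 to 788 in APP. The Y-linked gene Ddx3y had 0 to 2 counts in ACF libraries and 4137 to 4538 in the others, so the ACF genotype and the sex of the mice cannot be told apart in any comparison with ACF. Microglial markers (8 genes) summed to 18600 to 18900 CPM in WT, 21600 to 21900 in APP and 18900 to 19000 in ACF, whereas the 9 B lineage genes together summed to 38.4 to 41.4, 19.4 to 21.1 and 28.3 to 30.2 CPM. In such bulk RNA, fewer cells of a type and less RNA per cell cannot be told apart. Of the 9 genes, 7 passed the filter on low counts (about 10 counts in at least 3 libraries) and were tested by edgeR in a fit of all 9 libraries, with p-values adjusted over 14696 genes. Vpreb3 and Rag1 passed it only through ACF, the group where they are high, so that they had to differ, and Vpreb1 and Igll1 did not pass.

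Cd79a, Ms4a1 and Pax5 were lowest in APP. The calls below are for the 5 genes that also passed the count filter through WT, namely Cd79a, Cd79b, Ms4a1, Pax5 and Ebf1. Against WT, 4 of these 5 fell in APP and none rose, while 32% of all tested genes were called lower and 26.9% higher. From APP to ACF, 3 of the 5 rose and none fell, with 27.3% of all genes called higher and 27.7% lower. Against WT, 4 of the 5 were lower in ACF and none higher, where 24.7% of all genes were called higher and 23% lower. Those below WT in ACF were Pax5, Ms4a1, Ebf1 and Cd79b. Rag1 and Vpreb3 had their highest counts in ACF and are left out of these calls, since only ACF brought them through the filter. The 3 comparisons share libraries, so their values are given side by side and not as separate evidence.

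**Figure D1:**
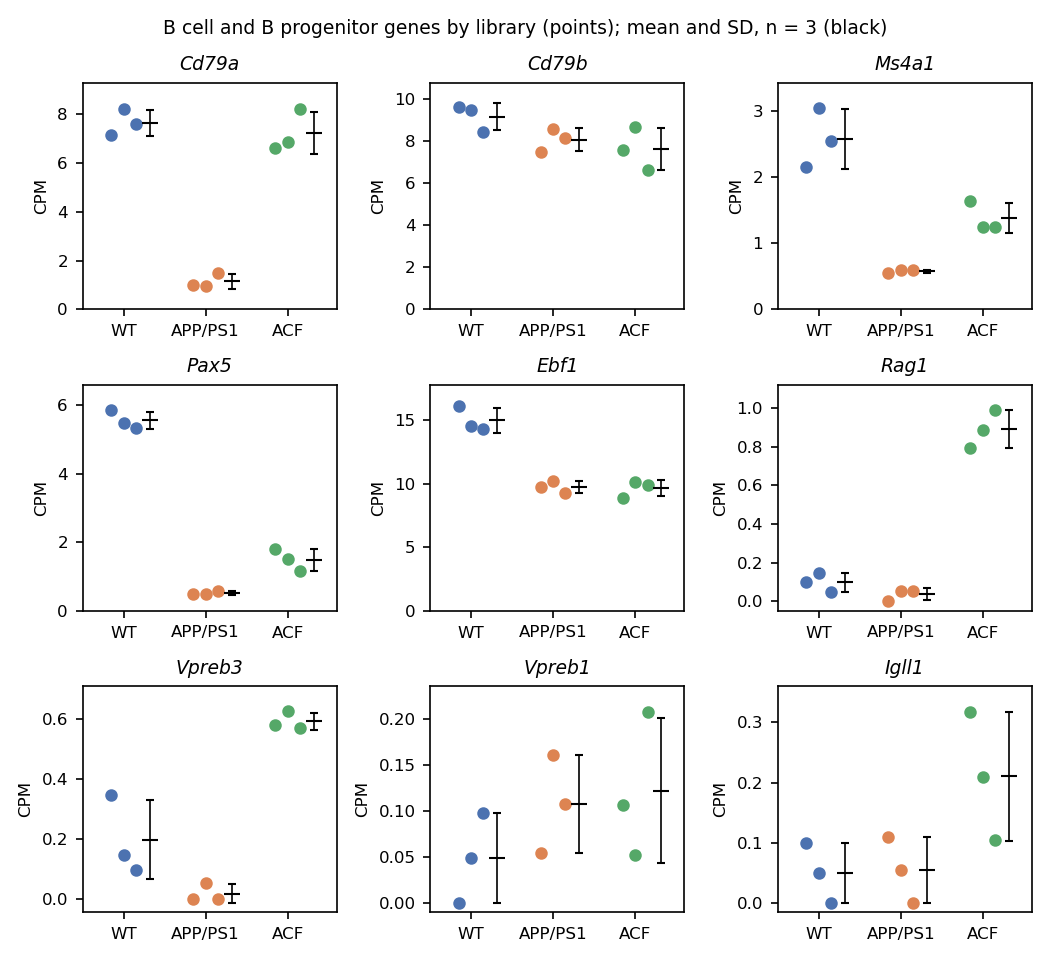
CPM (TMM-scaled, linear axes that differ between panels) of the 9 B lineage genes in each WT, APP (axis label APP/PS1) and ACF library, with points for libraries and black marks for the mean and SD (n = 3). Cd79a in ACF overlaps WT and Pax5 lies far below it, whereas Rag1 and Vpreb3 are highest in ACF.

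Cd79a (chr7:24897497-24901858) encodes the Ig-alpha chain, which is made from the progenitor stage on and stays in the receptor of mature B cells. The WT libraries held 143, 167 and 155 estimated counts, the APP libraries 18, 18 and 28, and the ACF libraries 125, 131 and 158. APP lay below both other groups without overlap, and WT and ACF overlapped. The level was 7.65 CPM ± 0.546 in WT, 1.15 CPM ± 0.308 in APP and 7.23 CPM ± 0.871 in ACF (SD, n = 3). Cd79a fell by 2.72 on the log2 scale in APP against WT (SE 0.16, edgeR adjusted p 8.43e-14) and rose by 2.64 in ACF against APP (SE 0.17, edgeR adjusted p 2.73e-13). Between ACF and WT the log2 difference was -0.081 (SE 0.11, edgeR adjusted p 0.593).

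Cd79b (chr11:106311341-106314562) encodes the Ig-beta partner, which is not restricted to B cells because microglia are also known to express it. WT libraries held 192, 192 and 172 counts, APP libraries 137, 159 and 151, and ACF libraries 143, 165 and 127. On the CPM scale each pair of groups overlapped. The level was 9.15 CPM ± 0.637 in WT, 8.06 CPM ± 0.541 in APP and 7.6 CPM ± 1.01 in ACF (SD, n = 3). On the length-scaled TPM (the transcripts-per-million scale) the pair was near balance in WT, with 89.5 to 108 TPM of Cd79b per 100 TPM of Cd79a, and in ACF, with 64.8 to 102. In APP there were 435 to 714 per 100, above every library of the other groups. Only ACF against WT passed for Cd79b (log2 -0.27, SE 0.10, edgeR adjusted p 0.0337). That call was lost with DESeq2 size factors (edgeR adjusted p 0.0537), in the DESeq2 test (adjusted p 0.234) and without any of 4 libraries (WT 1, WT 2, ACF 1 or ACF 3, edgeR adjusted p 0.0707 to 0.206). APP against WT was -0.18 (edgeR adjusted p 0.126) and passed when library totals alone were used for scaling (-0.32, edgeR adjusted p 0.0073). It also passed as log2 TPM (-0.57, limma adjusted p 0.000138). These scalings moved the median of all genes to -0.17 and -0.415, about as far as they moved Cd79b.

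Ms4a1 (chr19:11249679-11266149), the CD20 gene of mature B cells, separated all 3 groups. WT libraries held 43, 62 and 52 counts, APP libraries 10, 11 and 11, and ACF libraries 31, 24 and 24, an order of WT, ACF, APP with no overlap. The level was 2.58 CPM ± 0.455, 0.577 CPM ± 0.0266 and 1.38 CPM ± 0.225 in WT, APP and ACF (SD, n = 3). It fell by 2.15 on the log2 scale in APP against WT (SE 0.25, edgeR adjusted p 2.81e-08), rose by 1.25 in ACF against APP (SE 0.28, edgeR adjusted p 0.000398) and was -0.90 in ACF against WT (SE 0.21, edgeR adjusted p 0.000732).

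Pax5 (chr4:44524748-44710694), the commitment factor that keeps B cell identity until the plasma cell stage, had the same order with a wider gap. There were 117, 111 and 109 counts in the WT libraries, 9, 9 and 11 in those of APP, and 34, 29 and 22 in those of ACF. No libraries overlapped between groups, and WT was 5.55 CPM ± 0.261 against 0.523 CPM ± 0.0606 in APP and 1.49 CPM ± 0.328 in ACF (SD, n = 3). Pax5 fell by 3.39 on the log2 scale in APP against WT (SE 0.21, edgeR adjusted p 1.15e-13), a 10.5-fold lower level. In ACF it was 2.82-fold above APP (log2 1.5, SE 0.26, edgeR adjusted p 2.49e-05) and 3.72-fold below WT (log2 -1.90, SE 0.17, edgeR adjusted p 3.69e-10).

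Ebf1 (chr11:44618100-45008096) is the factor upstream of Pax5 and is also known in mural cells of blood vessels. It had the highest CPM of the 9 genes, with counts of 323, 295 and 292 in WT, 178, 190 and 172 in APP and 168, 194 and 190 in ACF. WT lay above both other groups, which overlapped each other. Ebf1 fell by 0.62 on the log2 scale in APP (SE 0.08, edgeR adjusted p 3.78e-07) and by 0.63 in ACF (SE 0.08, edgeR adjusted p 3.94e-07) against WT. ACF against APP gave a log2 difference of -0.013 (SE 0.09, edgeR adjusted p 0.917), whose sign changed with the scaling. Per 100 TPM of Pax5 there were 421 to 438 TPM of Ebf1 in WT, 2520 to 3240 in APP and 787 to 1370 in ACF. Mural and endothelial markers (10 genes, Rgs5 the highest, none at 0) summed to 887 to 911 CPM in WT, 747 to 781 in APP and 659 to 662 in ACF. Of those markers 8 fell in APP against WT, 10 of 10 fell in ACF against WT, and 7 fell and none rose in ACF against APP. Of all tested genes, 32%, 23% and 27.7% were called lower in these comparisons. Vessel and mural cells lack CD45, the protein the capture targets. Relative to these markers Ebf1 was 15.7 to 18.2 per 1000 marker CPM in WT, 12.1 to 13.1 in APP and 13.4 to 15.4 in ACF, and the part of vessel cells in the Ebf1 result was not tested.

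Rag1 (chr2:101638252-101649532), a subunit of the recombinase, was near the floor outside ACF. The WT libraries held 2, 3 and 1 counts, those of APP 0, 1 and 1, and those of ACF 15, 17 and 19, so every ACF library lay above every other library. The summed count of 51 in ACF against 6 in WT gave a ratio of 9.03 after scaling (exact 95% counting interval 3.88 to 25.7), and against 2 in APP a ratio of 24.7 (6.5 to 210). In edgeR with no filter on low counts, the adjusted p was 8.75e-06 in ACF against WT and 4.63e-07 in ACF against APP. It was 0.31 in APP against WT. Rag1 was listed with earlier results of these data known, so these values describe the libraries and are not separate evidence. On the length-scaled TPM Rag1 stayed low even in ACF, at 0.25 to 0.31.

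Vpreb3 (chr10:75943024-75949657) encodes a VPREB-like chaperone that binds newly made immunoglobulin light chains. In WT there were 7, 3 and 2 counts per library, in APP 0, 1 and 0, and in ACF 11, 12 and 11. The 3 groups did not overlap, with ACF highest, although WT libraries differed among themselves. The ratio of summed counts was 3.01 in ACF against WT (34 against 12 counts, exact 95% counting interval 1.52 to 6.38) and 33 in ACF against APP (34 against 1, 5.53 to 1340). With no filter on low counts the edgeR adjusted p-values were 0.0188 and 1.39e-05, and 0.0134 in APP against WT. Like those of Rag1, they are a description, since the gene was listed with earlier results known. The difference between ACF and WT did not pass in the DESeq2 test (adjusted p 0.117) and without WT library 3 (edgeR adjusted p 0.0582), and that between APP and WT did not pass without WT library 1 (edgeR adjusted p 0.0845). Without APP library 2, which holds the single count of its group, the groups left at 0 give no fold.

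Vpreb1 (chr16:16868401-16869255) and Igll1 (chr16:16860671-16863985), the surrogate light chain pair, were at or near the detection floor. Vpreb1 had 0, 1 and 2 counts in WT, 1, 3 and 2 in APP and 2, 1 and 4 in ACF. Its groups overlapped, and the ratio of summed counts in ACF against WT was 2.48 (7 against 3 counts, exact 95% counting interval 0.566 to 14.9). Igll1 had 2, 1 and 0 counts in the libraries of WT and equally of APP, and 6, 4 and 2 in those of ACF. Its ACF libraries reached the highest counts but overlapped the others at 2, with a ratio of 4.25 against WT (12 against 3 counts, 1.15 to 23.5) and 3.88 against APP (1.05 to 21.4). With no filter on low counts, the edgeR adjusted p of Igll1 was 0.102 against WT and 0.118 against APP, and that of Vpreb1 was 0.399 and 0.918. Neither gene of the surrogate light chain passed the test at this depth. These intervals cover counting error only, since PCR copies were not told apart.

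**Figure D2:**
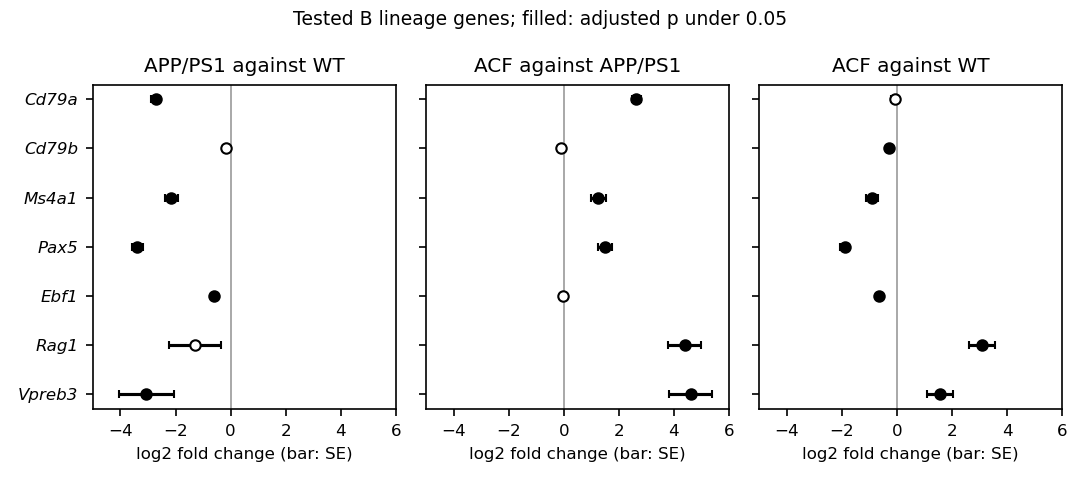
log2 fold change (edgeR, TMM scaling) of the 7 tested B lineage genes in the 3 comparisons, with bars for the SE and filled points for an adjusted p under 0.05. All called genes lie left of 0 in APP against WT and right of 0 in ACF against APP. Rag1 and Vpreb3 entered the test through ACF alone, and their fitted values against APP rest on 2 and 1 counts and depend on the prior count.

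The make-up of the B lineage signal differed between WT and ACF although their Cd79a levels overlapped. Per 100 TPM of Cd79a, Pax5 stood at 7.73 to 9.56 TPM in WT, 4.58 to 6.04 in APP and 1.63 to 3.14 in ACF. Ms4a1 stood at 9.79 to 12.1, 12.7 to 19.8 and 4.96 to 8.04 in the same order. Both genes were thus lowest per Cd79a in ACF, without overlap with WT. Rag1 ran the other way, at 0.107 to 0.246 in WT, 0 to 0.549 in APP and 1.75 to 1.84 in ACF, and Vpreb3 stood at 2.13 to 8.09 in WT and 11.5 to 15.6 in ACF. These ratios are a description of 3 libraries a group, and the APP values of Rag1 and Vpreb3 rest on single counts.

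**Figure D3:**
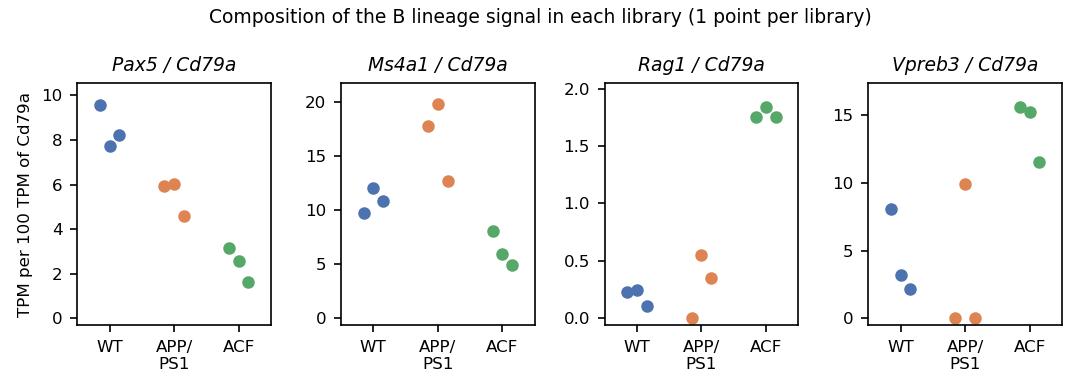
TPM of Pax5, Ms4a1, Rag1 and Vpreb3 per 100 TPM of Cd79a, with 1 point per library of WT, APP and ACF (linear axes that differ between panels). Pax5 and Ms4a1 are lowest in ACF (1.63 to 3.14 and 4.96 to 8.04), and Rag1 and Vpreb3 are highest there (1.75 to 1.84 and 11.5 to 15.6).

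Other genes of the lineage were taken from 6 lists of 52 genes in all. None of the 11 immunoglobulin constant genes matched a symbol of the table, so they could not be analysed. That left 41 genes, 38 of them tested. In APP against WT 29 fell and 3 rose, with a median log2 change of -0.44 (all tested genes -0.036). In ACF against APP 25 rose and 2 fell (median 0.31, all genes -0.011), and in ACF against WT 13 rose and 13 fell (median 0.022, all genes -0.009). Of all tested genes, 26.9% were called higher and 32% lower in the first comparison, 27.3% and 27.7% in the second and 24.7% and 23% in the last, and the counts of each list below are to be read against these shares. That last balance depends on scaling, with 9 higher and 19 lower on library totals and 8 higher and 21 lower on TPM.

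Surface receptors of B cells numbered 10 tested genes. In APP against WT 7 of 10 fell and 1 rose (median log2 -1.58), in ACF against WT 5 fell and 2 rose (median -0.29; the 2 of 10 higher are near the share of all genes), and in ACF against APP 5 rose and none fell (median 0.32). On library totals and on TPM, 1 rose and 6 fell in ACF against WT. Single receptors differed in how they stood in ACF. Fcmr, the IgM Fc receptor, had 45 to 55 counts in WT, 3 to 9 in APP and 4 to 8 in ACF, and Fcer2a (CD23) had 39 to 47, 8 to 15 and 2 to 10. Neither passed in ACF against APP (edgeR adjusted p 0.847 and 0.12), and the sign of Fcmr there changed on TPM. Tnfrsf13c, the BAFF receptor of B cells, had 11 to 12 counts in WT, 1 to 7 in APP and 15 to 21 in ACF, the last above every WT library but short of the threshold (log2 0.80, edgeR adjusted p 0.0528). Fcrla, an Fc receptor-like protein of B cells, had the Cd79a pattern, with 25 counts in each WT library, 6 to 8 in APP and 19 to 34 in ACF. The most abundant members were Tnfrsf13b, Cd72 and Cd22, at 47.7 CPM ± 1.9, 25.9 CPM ± 1.31 and 36 CPM ± 0.776 in WT (SD, n = 3). Of these, Cd72 rose in both APP and ACF against WT (log2 0.62 and 0.69, edgeR adjusted p 8.78e-10 and 1.78e-10). Fcmr, Fcer2a, Tnfrsf13c and Fcrla were named after their values were seen.

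Signalling proteins downstream of the receptor (8 genes), most of which myeloid cells use too, all fell in APP against WT, most by small amounts (median log2 -0.27). In ACF against APP 6 of 8 rose and 1 fell (median 0.28), and in ACF against WT 2 rose and 3 fell, near the shares of all genes. On library totals 2 rose and 5 fell there, and on TPM 1 rose and 6 fell. Lyn, Pik3ap1 and Syk, the most abundant, were at 443, 361 and 276 CPM in WT and changed by -0.21, -0.27 and -0.51 in APP (edgeR adjusted p 3.62e-07, 7.68e-09 and 1.6e-13). Blk, a kinase largely restricted to B cells and named after its values were seen, moved further, with 39 to 54 counts in WT, 7 to 13 in APP and 84 to 113 in ACF. The log2 change of Blk was -1.975 in APP against WT (SE 0.25, edgeR adjusted p 1.91e-07). It rose by 1.14 on the log2 scale in ACF against WT (SE 0.17, edgeR adjusted p 2.66e-06).

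Of the progenitor list beyond the 9 genes, Il7r and Lef1 were tested and the recombination genes Rag2 and Dntt were sparse. Rag2, the partner of Rag1, had 1 count in each WT library, 0 in APP and 0 to 3 in ACF, with adjusted p-values of 0.661 in ACF against WT and 0.0746 in ACF against APP in edgeR with no filter on low counts (5 against 3 counts in ACF against WT, ratio 1.77, exact 95% counting interval 0.344 to 11.4). Dntt, which adds bases at immunoglobulin joints, had 3 to 12 counts in WT, 0 to 1 in APP and 4 to 9 in ACF. With no filter on low counts its edgeR adjusted p was 0.000392 in APP against WT, 0.00103 in ACF against APP and 0.85 in ACF against WT. The ACF to WT ratio of Dntt was 0.885 (0.464 to 1.67), unlike the 9.03 of Rag1. Il7r, the receptor for the growth factor of B and T progenitors, had 413 to 455, 260 to 288 and 411 to 452 counts, and like Lef1 it fell in APP against WT (log2 -0.53 and -0.39) and rose in ACF against APP (0.60 and 0.26, edgeR adjusted p 2.1e-08 and 0.0278). The Lef1 rise was not called in the DESeq2 test (adjusted p 0.13). Il7r and Lef1 are also expressed by T cells.

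Transcription factors of the lineage (11 genes) gave 8 lower and none higher in APP against WT (median log2 -0.34), 7 higher and none lower in ACF against APP (median 0.30), and 2 higher and 5 lower in ACF against WT. That last count was 1 higher and 7 lower on library totals and on TPM, and 2 higher and 2 lower in the DESeq2 test. The abundant Irf8, Ikzf1 and Pou2f2, at 287, 302 and 101 CPM in WT, are shared with myeloid cells. Pou2af1, a coactivator of octamer-binding factors in B and plasma cells, had 57 to 68 counts in WT, 7 to 17 in APP and 143 to 164 in ACF. It rose above WT in ACF by 1.38 on the log2 scale (SE 0.14, edgeR adjusted p 4.16e-09), opposite to Pax5, and was named after its values were seen.

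Plasma cell genes (7 genes) were mostly highest in ACF. Jchain, which joins IgM and IgA units into polymers, had 885 to 966 counts in WT, 555 to 587 in APP and 6973 to 7625 in ACF. Its level in ACF was 381 CPM ± 20.2 against 45.9 CPM ± 2.31 in WT and 30.8 CPM ± 1.13 in APP (SD, n = 3), 8.31-fold above WT (edgeR adjusted p 4.08e-27) and 12.4-fold above APP (edgeR adjusted p 2.68e-28). Mzb1, an antibody-folding chaperone, had 33 to 54, 16 and 240 to 274 counts in WT, APP and ACF, and Sdc1 (CD138) had 52 to 69, 12 to 26 and 169 to 191. Derl3, which serves protein disposal in the endoplasmic reticulum, had 12 to 17, 3 to 10 and 47 to 66. In ACF against WT 7 of 7 rose (median log2 1.72), but Xbp1 did so by only 0.086 (edgeR adjusted p 0.0222) and had the opposite sign on library totals and TPM. Tnfrsf17 rose by 0.29 with overlapping groups (edgeR adjusted p 0.0454), and its call was lost on library totals (edgeR adjusted p 0.199), on TPM (limma adjusted p 0.383) and in the DESeq2 test (adjusted p 0.145). On library totals 5 of the 7 rose, and on TPM 5 rose and 1 fell. Against APP 5 rose and 1 fell (median 2.92), the gene that fell being Tnfrsf17, the plasma cell survival receptor BCMA, which had 252 to 263 counts in APP against 77 to 103 in WT and 103 to 111 in ACF. Prdm1 had the highest mean CPM over all 9 libraries, although Jchain stood above it in ACF. It was 0.23 above WT in APP with TMM but below it on TPM (-0.16, limma adjusted p 0.00297), where the median of all genes was -0.415. Mzb1, Sdc1, Derl3 and Tnfrsf17 were named after their values were seen.

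**Figure D4:**
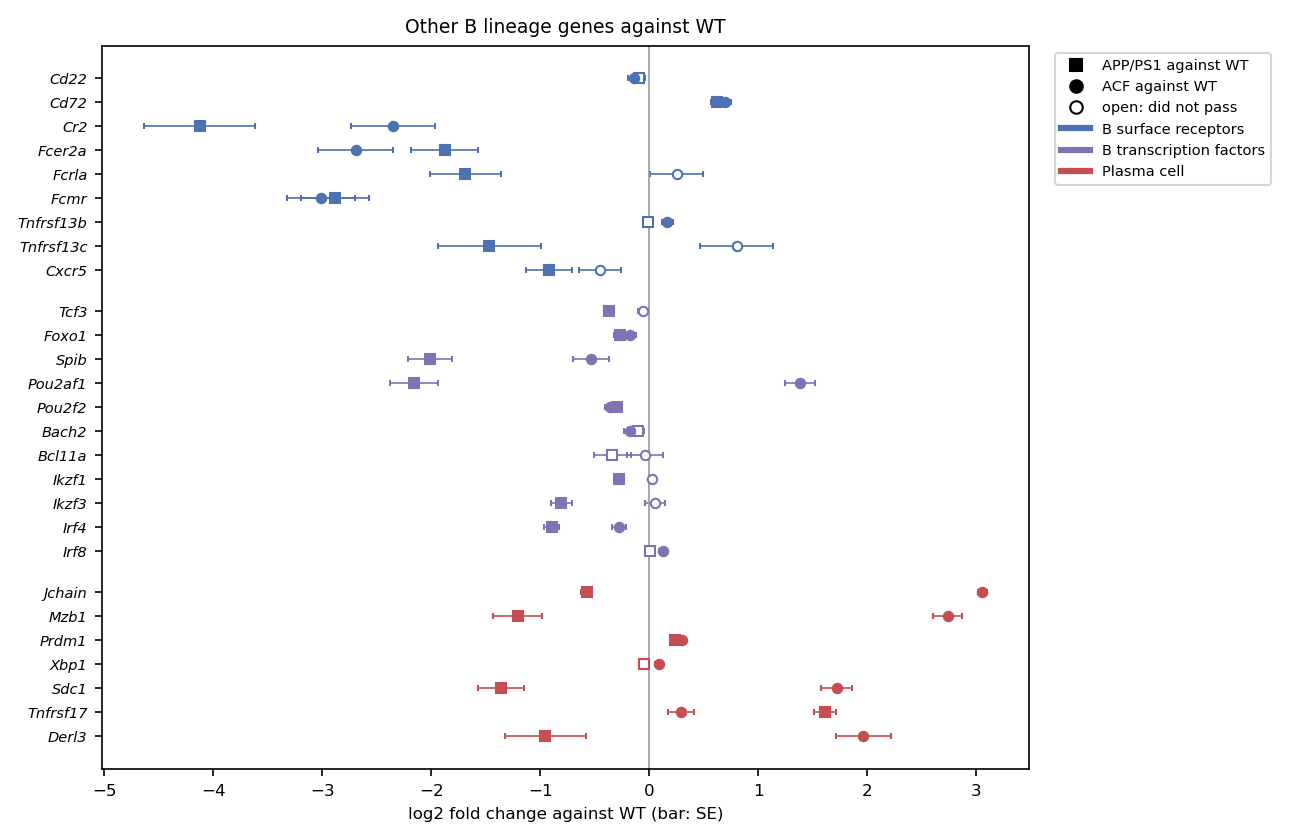
log2 fold change against WT (edgeR, TMM; bars are the SE) of B surface receptor (9 genes), B transcription factor and plasma cell genes, as squares for APP and circles for ACF, filled where the adjusted p was under 0.05. Cr2, Fcer2a and Fcmr lie left of 0 in both groups, while Pou2af1, Jchain, Mzb1, Sdc1 and Derl3 lie left of 0 in APP and right of it in ACF.

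Markers of some other blood cells were also lowest in APP. Neutrophil markers (10 genes, S100a9 the highest, none at 0) summed to 3240 to 3280 CPM in WT, 1420 to 1490 in APP and 9050 to 9150 in ACF, with 10 of 10 lower in APP against WT and 10 of 10 higher in ACF against APP. In ACF against WT 9 of 10 neutrophil markers were higher and none lower (median log2 1.48). The 5 B lineage genes counted above gave none higher and 4 lower there. That count leaves out Rag1 and Vpreb3, which were highest in ACF, so it cannot be set against the neutrophil count. Marrow progenitor markers (7 genes, Cd34 the highest, none at 0) summed to 741 to 776, 309 to 337 and 672 to 694 CPM, with 6 of 7 lower and 1 higher in APP against WT and 7 of 7 higher in ACF against APP. The list's median log2 change was -5.55 and 4.72 in these comparisons, far larger than that of the sum, in which Cd34 is the most abundant gene. The order of the sums, WT, ACF and APP, is that of Pax5 and Ms4a1. The neutrophil sums were highest in ACF, as were Rag1 and Vpreb3, but Rag1 overlapped between WT and APP. Per 100000 CPM of neutrophil markers, Cd79a stood at 221 to 251 CPM in WT, 66.6 to 101 in APP and 72.4 to 90.3 in ACF. Rag1 stood at 1.49 to 4.52, 0 to 3.7 and 8.68 to 10.9 on that scale. The Rag1 values are a description only, since they rest on 6 summed counts in WT and 2 in APP. Rag1 also passed the count filter only through ACF.

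Not all blood cell markers had their minimum in APP. T and NK cell markers (9 genes measured, none at 0) were highest there, at 67.7 to 68.3 CPM against 45.5 to 47.6 in WT and 49.5 to 52.2 in ACF, with 5 of 8 tested genes higher and 1 lower in APP against WT. Erythroid markers (7 genes, Hbb-bs the highest) ran from 801 to 864 CPM in WT to 174 to 195 in APP and 71.6 to 78.5 in ACF, with 7 of 7 lower in both than in WT, but 3 higher and 4 lower in ACF against APP. Plasmacytoid dendritic cell markers (3 genes, Cox6a2 the highest) summed to 4.44 to 5.19, 26.4 to 29.8 and 22.1 to 23.7 CPM, but of the 2 tested genes 1 was higher and 1 lower in each comparison. Neuronal markers (8 genes) summed to 57.1 to 64.5, 61.7 to 72.4 and 41.7 to 45.2. What part the number of captured blood cells has in the B lineage results was not tested.

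**Figure D5:**
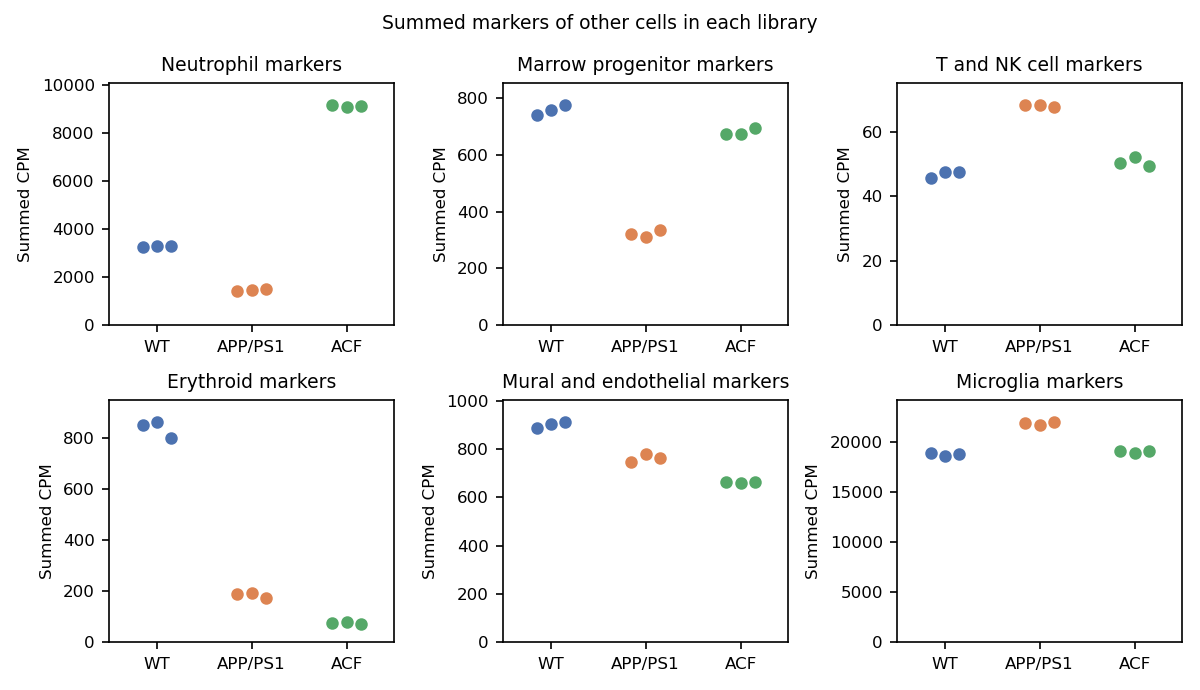
Summed CPM of marker lists of other cells (linear axes from 0), with 1 point per library of WT, APP and ACF. Neutrophil and marrow progenitor markers are lowest in APP (1420 to 1490 and 309 to 337 CPM), T and NK cell markers are highest there, and erythroid markers are highest in WT.

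The genes of the table whose profiles lay closest to each tested gene were found by the Euclidean distance of centred log2 CPM over the 9 libraries, among 13592 or 13593 genes of at least 1 CPM on average. The nearest to Cd79a was Napsa (distance 0.72; 23.4, 4.79 and 26 CPM in WT, APP and ACF), followed by Rrm2, a subunit of ribonucleotide reductase, and Ptpn7, a lymphocyte phosphatase. Close to Pax5 lay Adgrg5 (0.73; 19.7, 1.59 and 4.18 CPM) and Gm41844 (0.81). Ms4a1 was closest to Gm46911, LOC115489464 and Prg4. Ebf1 was closest to Lonrf1 (0.14), to Cd248, a surface protein of pericytes and fibroblasts (0.20), and to Plpp2 (0.22). Cd79b was closest to Filip1, Zfp28 and Fbxo48 (0.13 to 0.22). Vpreb3 was closest to Hsd11b1, Pilrb1 and Kif14 (0.78 to 0.83), and Rag1 to Saa3, AA467197 and the neutrophil gene S100a8 (0.89 to 0.93), the last at 501, 296 and 1750 CPM. Distances of genes with few counts include counting noise, and likeness over 3 groups is a description only.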

How the data were processed

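Per the labels' protocols, libraries of poly-A RNA were read on DNBSEQ as single ends of 50 nt. The submitters' processing notes name HISAT, Bowtie2, DESeq2 and the build GRCm38.p6; the counting program is not given in the sources used here. The deposited estimated counts carry decimals and are not scaled between libraries. The deposited TPM and FPKM values divide by transcript length and library size, and the deposited normalised counts are a signal made with a single factor per library. FPKM, normalised counts and the authors' group means were not used for results.

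Rounded estimated counts entered the tests. The main test was edgeR 4.0.16 (R 4.3.3), quasi-likelihood, with TMM scaling, filterByExpr by group, all 9 libraries in a single fit and Benjamini-Hochberg adjustment over all tested genes (threshold 0.05). SE is the log2 change divided by the root of the test's F. TMM and the filter decide levels of sparse genes, which rest on few counts. TPM was used to compare genes with each other and in an alternative fit. Alternatives used limma 3.58.1 and DESeq2 1.42.0. The members, lists and rules were chosen with earlier results of these data known; the genes to name were all members, up to 3 tested genes of highest mean CPM per list, Ighm, Igkc, Rag2, Dntt, Il7r and Jchain (where listed in the table), and the 3 nearest profiles of each member with at least 10 counts in every library of some group. Some genes these rules name are not reported here, though list counts and sums include them. Promoter words were counted in the 250 bases before each RefSeq start. Simulated data, drawn with the spread fitted to these libraries, served as a check of ACF against WT only. There the test recovered 83.7% of 1.5-fold and 100% of 4-fold changes, and 5.82% of its calls were false. No replicate pair agreed within sampling noise (mean chi-square per gene 1.8 to 3.54 over 9 pairs). The spread beyond counting noise was still small, with a common coefficient of variation of 3.14% in the edgeR fit. Small adjusted p-values rest on that spread.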

Additional observations from a re-analysis of the deposited data

How the results depend on the processing

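Of the 5 genes that passed the filter through WT, 4, 3 and 4 were called in APP against WT, ACF against APP and ACF against WT, in the directions in which 32%, 27.3% and 23% of all tested genes were called. Requiring at least 10 counts in every library left 4 genes to test, without Pax5, of which 3, 2 and 3 were called. The other alternatives gave 4 to 5, 3 and 3 to 4 of the 5 genes, and leaving out each library in turn gave 4, 3 and 3 to 4. For the other lineage genes the left-out libraries gave 31 to 32, 25 to 28 and 23 to 26 calls. The signs of Cd79b and Ebf1 in ACF against APP, which did not pass, reversed. Cd79b was 0.101 on TPM and 0.008 without ACF library 3 (range -0.185 to 0.008 over left-out libraries). Ebf1 was 0.017 on library totals, 0.165 on TPM, 0.020 without APP library 2 and 0.042 without ACF library 1 (range -0.052 to 0.042). The cause was not tested. Of the other lineage genes, 3, 4 and 10 changed sign under some scaling in the 3 comparisons. The median of all genes shifted to -0.17 (APP against WT) and -0.12 (ACF against WT) on library totals, and to -0.415, 0.18 and -0.20 on TPM.

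With the replicate number as a block, 4, 3 and 4 of the 5 genes were called, as without it, and 33, 28 and 28 of the other lineage genes against 32, 27 and 26. After group means were taken out, libraries with the same number correlated at 0.055 to 0.289 (9 pairs). Those with different numbers correlated at -0.253 to 0.053 (18 pairs), so the ranges did not overlap. Each of the 9 libraries correlated best with its own number in both other groups. The block lowered the common coefficient of variation in edgeR from 3.14% to 0.988%. The labels name no shared batch, so what the number stands for is not known. Depth limits Vpreb1, Igll1, Rag2 and Vpreb2, at 12 counts or fewer per group.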
